A study of Mus musculus with 6 samples.

Results

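Few nuclei met the rule set for Pvalb/Pthlh interneurons: 116 of 48834 nuclei from 6 mouse striatal libraries. The rule used the deposited value per nucleus and asked for Nxph1 of at least 3 and Pvalb plus Pthlh of at least 2. It also asked for Sst plus Npy of at most 2, Slc17a7 of at most 1, Rgs9 plus Pde10a of at most 7 and Mog plus Mag of at most 1. The last 4 limits keep out Sst/Npy interneurons, excitatory neurons, medium spiny neurons (MSNs) and oligodendrocytes. The libraries came from flash-frozen dissected striatum of 3 wild-type and 3 Celsr3 heterozygous mice, with 1 library per biological replicate, taken as 1 mouse. The labels give tissue and genotype and state no strain, sex, age, treatment or nature of the Celsr3 allele. Wild-type replicates 1, 2 and 3 gave 20, 20 and 19 of the selected nuclei, and heterozygous replicates 1, 2 and 3 gave 15, 10 and 32. The data supported the label for only some of these nuclei, as described below, so "the selected nuclei" is used for all 116.

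Striatal interneurons of this kind release GABA onto the cell bodies of MSNs and fire short action potentials at high rates. Their calcium-binding protein parvalbumin (Pvalb) and the secreted peptide of Pthlh mark overlapping sets of cells that arise in the medial ganglionic eminence under the transcription factors Nkx2-1, Lhx6 and Sox6. Kv3 potassium channels, of which Kcnc2 and Kcnc1 encode subunits, repolarise the membrane quickly, and Kit encodes a receptor tyrosine kinase. Celsr3 encodes a seven-pass cadherin known for its part in axon guidance and interneuron migration.

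The deposited values were treated as depth-corrected UMI values rounded to whole numbers. That was read from the values, since no source used here states the normalization, and the depth before any such correction is unknown. Each level below is a mean deposited value per nucleus. The 6 libraries held 7735 to 8875 nuclei each. The median number of genes detected was 3765.5 per selected nucleus, against 2849 over all nuclei. Fewer than 3000 genes were detected in 15 of the selected nuclei, 1 had a doublet score above 0.25, and 1 carried a barcode that also occurred in another library.

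Most of the selected nuclei stood at the edge of the rule. Of the nuclei that met every other limit, 2414 had Pvalb plus Pthlh at 0, 347 at 1, 88 at 2, 16 at 3, 9 at 4 and 3 at 5 or more. The 88 nuclei at 2 made up 75.9% of the selected nuclei. A sum of 2 or more was reached by 4.03% of the 2877 nuclei that met the other limits, by 0.356% of 14886 MSNs (Rgs9 plus Pde10a of at least 15, Nxph1 of at most 1) and by 1.02% of 7474 oligodendrocytes (Mog plus Mag of at least 5). Just outside and just inside the limit, Kit was at 2 or more in 17.9% of the nuclei with a sum of 1 and in 37.5% of those with a sum of 2, and mean Erbb4 was 33.9 and 50.4. In all, 295 of the nuclei that met the other limits had Kit at 2 or more. Of these 295, 44 (14.9%) reached a sum of 2 or more, 189 had a sum of 0 and 62 a sum of 1. The limit on the sum thus left most such Kit nuclei outside the selection. Mean Kcnc2, also a gene of the label, was 8.93 at a sum of 1, 8.15 at 2 and 3.75 at 3 or more. In 2 of the selected nuclei the low genes stood at 2 or 3 and never at 1, so that a value of 2 there can stand for the lowest step.

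Genes of GABA synthesis were found in most of the nuclei, and medial ganglionic genes in a part of them. At least 1 of Gad1, Gad2 and Slc32a1, which make GABA and load it into vesicles, was above 0 in 111 of the 116 nuclei. Gad1 was above 0 in 87.9% of the selected nuclei, in 63.5% of MSNs and in 53.1% of Sst/Npy nuclei. In oligodendrocytes, whose median was 1940 genes, it was above 0 in 16.5%. Sox6 was above 0 in 80 nuclei (69.0%) and Lhx6 in 35 (30.2%), against 4.34% and 0.900% of MSNs, whose median was 3330 genes. Sst/Npy nuclei, which share this origin, had Sox6 above 0 in 60.4% and Lhx6 in 36.0%, at a median of 3351.5 genes. Kcnc2 was above 0 in 73 nuclei (62.9%, MSNs 10.9%, Sst/Npy nuclei 72.4%) and Kit in 47 (40.5%, MSNs 1.23%, Sst/Npy nuclei 13.0%). Kcnc2 was thus found in a larger share of Sst/Npy nuclei than of the selected nuclei. Pvalb was above 0 in 93 nuclei and Pthlh in 46, with both in 23.

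The 5 label genes varied more between libraries than between genotypes. Pvalb lies at chr15:78191114-78206400, on the minus strand of GRCm38. Its level in replicates 1, 2 and 3 was 2, 1.10 and 1.63 for wild type, and 1.60, 1.40 and 1.91 for heterozygotes. Pthlh (chr6:147252101-147264183, minus strand) stood at 0.400, 1.30 and 0.842 in wild type and at 0.800, 0.700 and 0.469 in heterozygotes. Wild-type replicate 2 thus had the lowest Pvalb and the highest Pthlh of all libraries. The rule limited the sum of these genes, so a low level of Pvalb goes with a high level of Pthlh. Nxph1, which encodes a secreted ligand of neurexins, was at 22.8, 49.9 and 31.3 in wild type and at 33.3, 24.7 and 24.2 in heterozygotes. Kit (chr5:75574916-75656722, plus strand) was at 1.40, 4.25 and 1.63 in wild type and at 3, 1.40 and 1.59 in heterozygotes. Kcnc2 (chr10:112271121-112467024, plus strand) was at 8.60, 4.05 and 7.11 in wild type and at 10.2, 3.50 and 7.69 in heterozygotes. The genotypes overlapped for all 5 genes, and wild-type replicate 2 was again the highest library for Nxph1 and Kit. Pvalb, Pthlh and Nxph1 were used by the rule, so their levels and overlap are a description of the selection.

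**Figure D1:**
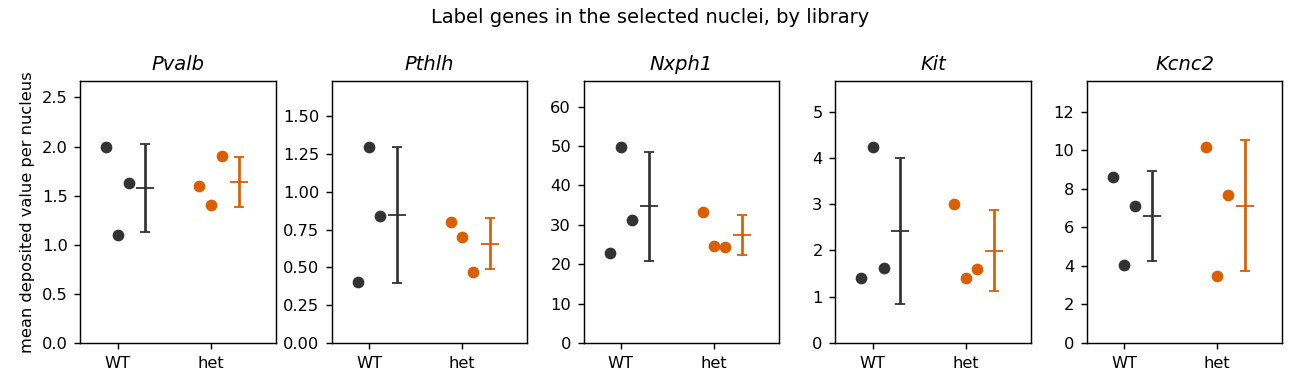
Mean deposited value per nucleus of the 5 label genes in the selected nuclei (vertical axes, each from 0), for the 3 wild-type (WT) and 3 heterozygous (het) libraries; points are libraries in replicate order and bars show the mean ± SD. The genotypes overlap for each gene, and wild-type replicate 2 is lowest for Pvalb (1.10) and highest for Pthlh (1.30), Nxph1 (49.9) and Kit (4.25). Pvalb, Pthlh and Nxph1 were used by the rule, which limited the sum of Pvalb and Pthlh.

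Against all other nuclei, the genes with the largest ratios in the selected nuclei included Kcnmb2, Kcnip1, Kcns3, Kit and Il1rapl2. This is a description with no test, because the same nuclei were chosen by their values. Of genes outside the rule, 1603 had a mean of at least 0.3 in the selected nuclei and stood higher there in 6 of 6 libraries, and 807 with that mean in all other nuclei stood lower. Among the 20 with the largest ratios were Kcnmb2, a subunit of calcium-activated potassium channels, at 7.91 against 0.375, and Kcnip1, which modulates Kv4 channels, at 8.07 against 0.474. Kcns3, a modulatory subunit that pairs with Kv2 channels, stood at 0.708 against 0.0296, and was at 0.363 in Sst/Npy nuclei. Kit itself was at 2.21 against 0.0910, and Sfta3-ps, a transcript from beside Nkx2-1, at 2.80 against 0.127. Il1rapl2, a synaptic adhesion protein of the interleukin-1 receptor family, was at 38.7 against 2.24. Cemip, which takes part in breaking down hyaluronan, was at 2.75 against 0.151, and Vwc2, a secreted antagonist of bone morphogenetic proteins, at 3.69 against 0.251. Mypn, with the largest ratio, was at 0.974 against 0.0259. The rest of the 20 were 6330411D24Rik, Gm26633, Grip1os3, 4930488N15Rik, Moxd1, Pde3a, Gm45904, Akain1, Plekhd1, A530058N18Rik and Gna14.

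The selected nuclei and the other main GABAergic interneurons of the table, 608 Sst/Npy nuclei (Sst plus Npy of at least 5, Pvalb plus Pthlh of at most 1), differed in many genes outside the rule. Higher in the selected nuclei in 6 of 6 libraries were Il1rapl2 (38.7 against 2.33), Adamts5, an enzyme that cuts aggrecan (0.438 against 0.0172), and Pde3a (2.68 against 0.183). Adamtsl5, Mypn, Igfbp4, Opn3, Gna14, Gm26633 and Hs3st2 completed the 10 largest ratios in this direction. The largest ratios the other way included known genes of the Sst/Npy type. Nos1, which makes nitric oxide, was at 0.110 against 3.81, the substance P receptor gene Tacr1 at 0.0866 against 3.27, and Reln, the gene of the secreted protein reelin, at 0.0921 against 1.83. Hhip, L3mbtl4, Nell1, Col25a1, Slco1a4, Chodl and Adarb2 were the others, of which Slco1a4 is on the vascular marker list and Adarb2 on that of Vip-, Htr3a- or Th-type interneurons. Kcnc2, a gene of the label, and Lhx6 were not higher in the selected nuclei: Kcnc2 was at 6.86 in the selected nuclei and 7.86 in Sst/Npy nuclei, and Lhx6 at 0.450 and 0.741. In 6 of 6 libraries, 815 genes outside the rule were higher in the selected nuclei, where their mean was at least 0.3, and 545 were higher in Sst/Npy nuclei, with the same limit set there.

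Kit and Kcnc2, both given as markers of the population, were found in different nuclei. Kit was at 2 or more in 44 nuclei, and in 32 of these Kcnc2 was at 0. Kcnc2 was at 4 or more in 48 nuclei, of which 3 also had Kit at 2 or more. The nuclei were therefore described in 3 subsets, defined on Kit and Sox6 after their values were seen and compared without any test: 44 with Kit at 2 or more, 36 with Kit below 2 and Sox6 above 0, and 36 with Kit below 2 and Sox6 at 0. All 44 Kit nuclei also had Sox6 above 0.

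**Figure D2:**
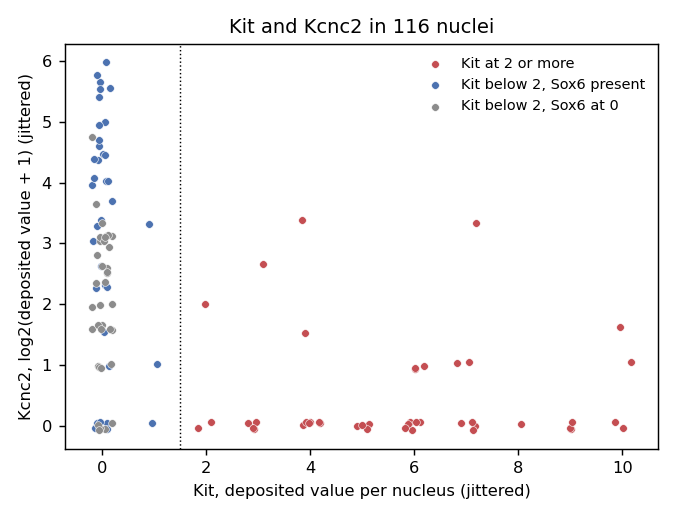
Kit (horizontal, deposited value) against Kcnc2 (vertical, log2 of the deposited value + 1) in each of the 116 selected nuclei, jittered for visibility and coloured by subset; the dotted line marks the Kit limit. Of the 44 nuclei right of the line, 32 have Kcnc2 at 0 and 3 have it at 4 or more.

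The subsets were spread unevenly over the libraries. Replicates 1, 2 and 3 held 5, 17 and 5 Kit nuclei for wild type, and 7, 2 and 8 for heterozygotes. They made up 85% of the selected nuclei of wild-type replicate 2 and 20% to 46.7% elsewhere. Nuclei with Sox6 and Kit below 2 numbered 5, 2 and 6 in wild type and 8, 4 and 11 in heterozygotes. Nuclei without Kit or Sox6 numbered 10, 1 and 8 in wild type and 0, 4 and 13 in heterozygotes. Every mean over the selected nuclei of a library is thus a mean over a different mixture.

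**Figure D3:**
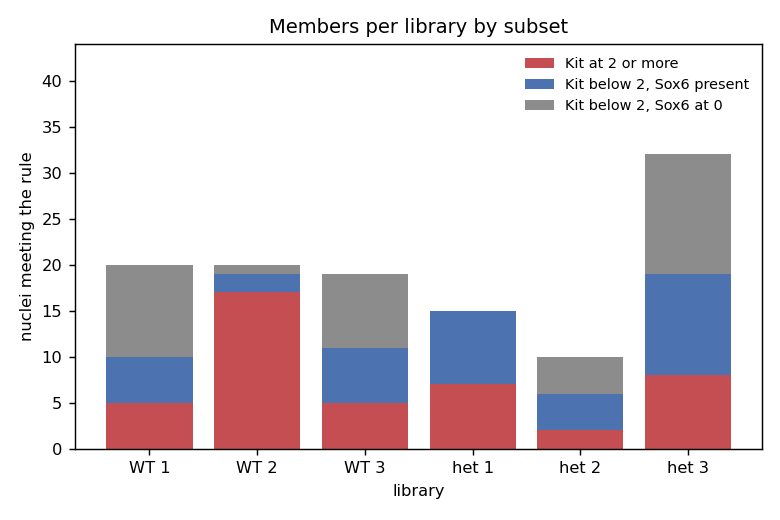
Number of selected nuclei (vertical axis, from 0) in each of the 6 libraries, stacked by subset. Wild-type replicate 2 consists mainly of Kit nuclei (17 of 20), and heterozygous replicate 1 has none without Kit or Sox6.

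The 44 Kit nuclei carried most of the Pthlh signal and were highest for several genes of the medial ganglionic eminence. Pthlh was above 0 in 35 of them, and its mean was 1.55, against 0.333 and 0.111 in the Sox6 subset and in the nuclei without Kit or Sox6. Pvalb was lower here, at 0.818 against 2.06 and 2.28, though the sum used in the rule ties these genes to each other. Nxph1 had a median of 49.5 per nucleus, against 14.5 and 12. Sox6 was alike in the Kit nuclei and the Sox6 subset (7.41 and 7.22), while Lhx6 was at 0.773 against 0.389 and 0.0278. Nkx2-1 was at 0.50 and was 0 in every nucleus of the other subsets. Sfta3-ps was at 6.48 against 0.667 and 0.0278, and the transcription factor gene Etv1 at 2.64 against 0.583 and 0. Egfr, the receptor of epidermal growth factor, was at 7.20 against 0.472 and 0.0278. Il1rapl2 reached 87.7 against 9.86 and 7, and the neuregulin receptor gene Erbb4 79.0 against 50.2 and 13.1. Ndst4, 4933432K03Rik, Egfros, Gdnf and Kcnd3 were further genes among the 10 with the largest ratios over the Sox6 subset.

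In the 36 nuclei with Sox6 and Kit below 2, of which 3 had Kit at 1 and the others at 0, Kcnc2 was highest, with a mean of 17.2 against 0.841 in Kit nuclei and 4.64 in those without Kit or Sox6. Kcnc1, a further Kv3 subunit, was at 5.42 against 3.34 and 2.31. Eya4, a transcriptional cofactor, was at 2.25 here and at 0 in all nuclei of both other subsets. It was found in only 16 of these 36 nuclei. Slit2, a guidance ligand of Robo receptors, was at 4.56 against 0.114 and 1.69, and Syt2, a calcium sensor of fast transmitter release, at 3.17 against 0.205 and 1.42. Satb1, a transcription factor of interneuron maturation, was at 2 against 0.227 and 0.0833. Sema3e, Pdzrn3, Shisa9, Pcdh10, Cdh7, Kcnip2 and Unc5d made up the rest of the 10 largest ratios over Kit nuclei. The subsets were themselves mixed. Pdgfra, a marker of oligodendrocyte precursors, was at 3 or more in 5 nuclei here, 2 Kit nuclei and 0 of the nuclei without Kit or Sox6. Zfp804b was at 25 or more in 4, 1 and 2 nuclei, and fewer than 3000 genes were detected in 6, 3 and 6.

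In the 36 nuclei without Kit or Sox6, medial ganglionic genes went against the interneuron label, while some other genes of the type did not. These nuclei were GABAergic, with Gad2 at 4.17 against 1.66 in Kit nuclei and 1.50 in the Sox6 subset. Pvalb was above 0 in 35 of them and Pthlh in 3. The rule asked for the sum of these genes, so this share of Pvalb was set by the selection. Kcnc2 was above 0 in 86.1% of them, against 27.3% of Kit nuclei and 83.3% of the Sox6 subset. The 22 markers of the striatal Pvalb or Pthlh type, which include genes of the rule, summed to 54.4 here. That sum was 173.3 in Kit nuclei, 130.7 in the Sox6 subset and 18.2 in all other nuclei. Lhx6, however, was at 0.0278, and Maf, a further factor of medial ganglionic interneurons, at 0.194 against 4.70 and 2.42. Leading genes were Rgs6, a regulator of G-protein signalling, at 13.4 against 0.205 and 1.17, and Hs3st4, a heparan sulfate sulfotransferase, at 22.2 against 2.93 and 2.64. The transcription factor genes Zfhx3 (3.75 against 0.114 and 0.528), Meis2 (6.58 against 0.205 and 1.42), Six3 (1.53 against 0.0455 and 0.194), Isl1 (0.694 against 0 and 0.139) and Nr2f2 (1 against 0 and 0.139) were also higher. Meis2, which is on the MSN marker list, was above 0 in 99.4% of MSNs, and Six3 in 23.8%. The sum of 15 MSN markers was 14.1 here, against 10.2 in Kit nuclei and 8.03 in the Sox6 subset, and 101 in MSNs. Pde10a, an MSN gene limited by the rule, was at 2.42 here and 24.7 in MSNs. No cell type name is given to this subset.

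**Figure D4:**
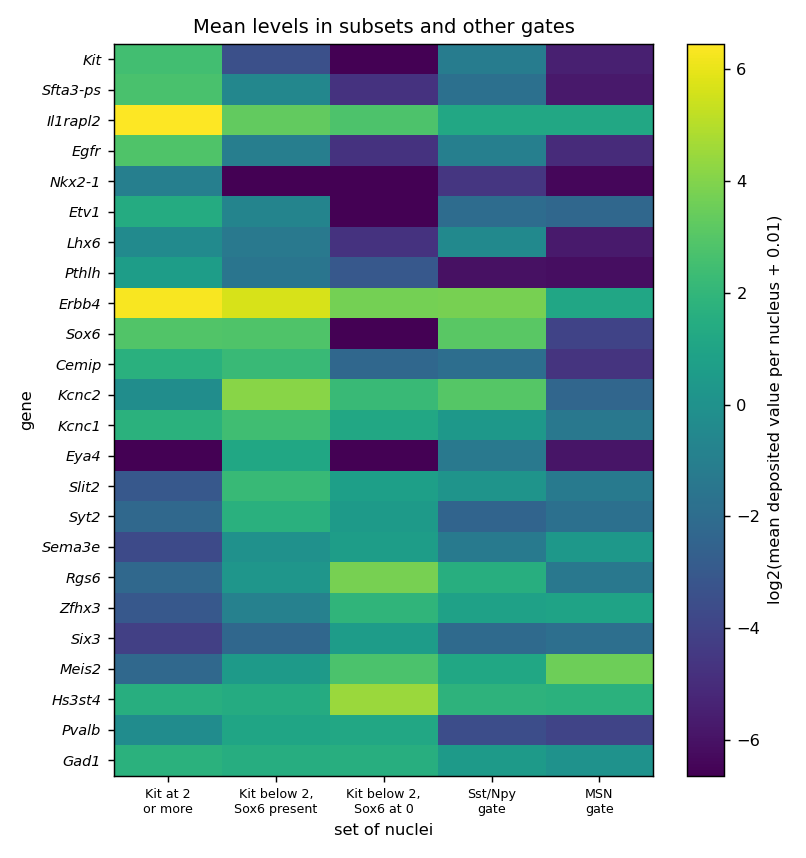
Levels of genes described in the text (rows) in the 3 subsets of the selected nuclei (means over nuclei), in Sst/Npy nuclei and in MSNs (means over libraries); colour shows log2(mean deposited value per nucleus + 0.01). Kit, Egfr and Nkx2-1 are high in the first column, Kcnc2, Eya4 and Slit2 in the second and Rgs6, Six3 and Hs3st4 in the third, while Gad1 lies between 2.81 and 3.25 in these 3 columns.

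A split by Pvalb followed the same line. In the 73 nuclei with Pvalb at 2 or more, Syt2 was at 2.42, against 0.0833 in the 23 nuclei with Pvalb at 0. Grik1, a kainate receptor subunit gene, was at 2.95 against 0.294, and Chsy3, a chondroitin synthase gene, at 1.96 against 0.0694. Eya4 (1.04) and Sema3e (1.24) were at 0 in the nuclei without Pvalb. Gm2115, Shisal1, Ptchd1, Pde5a and Creb5 were the other genes of the 10 largest ratios. In the other direction, Egfr was at 1.05 against 5.70, Igfbp4 at 0.172 against 2.28 and the potassium channel gene Kcnd3 at 0.836 against 4.04. Gm14582, Pcdh8, Tafa1, Thsd4, Gpc3, Necab1 and Galnt14 were the others on that side. By the rule, each nucleus without Pvalb had Pthlh at 2 or more, so this is a description of the selection and no test was made.

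Genes of fast spiking mostly stood above their level in Sst/Npy nuclei. Of the 16 of 18 such genes that reached 0.3 in a subset, 10 were above the Sst/Npy level in 6 of 6 libraries and 0 below it. Of all 6903 genes that reached 0.3 in a subset, 13.3% were above and 6.69% below in this way, where the limit on level was set in the selected nuclei alone and so favours genes that are high in them. The Sox6 subset was highest for 12 of the 16, and for 30.6% of all 6903 genes. Kcnc1 was at 3.60 against 1.26 in Sst/Npy nuclei and Kcna1 at 1.54 against 0.481. Of the transcription factors of medial ganglionic interneurons, 16 of 20 reached 0.3 in a subset, 12 of them highest in Kit nuclei, as were 29.5% of all 6903 genes. Genes of the perineuronal net, the matrix coat of fast-spiking cells, stood above Sst/Npy nuclei in 6 of 6 libraries for 5 of 10. Acan, its core proteoglycan, was at 0.249 against 0.0179, and Tnr, the gene of the matrix protein tenascin-R, at 3.52 against 2.37. Tnr was highest in the Sox6 subset, at 7.36, against 2.07 in Kit nuclei and 1.69 in the nuclei without Kit or Sox6. The Sox6 subset also had the highest sum of oligodendrocyte precursor markers, 2.33, and a link was not tested. Adamts15, above the Sst/Npy level in 5 of 6 libraries and at 0 in wild-type replicate 1, was split by subset, at 1.36 in Kit nuclei, 0.861 in the Sox6 subset and 0.0278 in the nuclei without Kit or Sox6.

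Receptor genes were given in the same way. Of 17 glutamate receptor genes, 2 were above and 6 below the Sst/Npy level in 6 of 6 libraries, beside 13.3% and 6.69% of all genes. Gria4, an AMPA receptor subunit of fast interneurons, was at 15.8 against 6.66 and was highest in Kit nuclei, at 22.8. Grik1 was at 2.03 against 6.14. Of the 10 genes for neuromodulator receptors that reached 0.3 in a subset, Cnr1, the cannabinoid receptor gene, was at 2.11 in Kit nuclei and at 0.222 and 0.361 in the others. The dopamine receptor gene Drd2 was at 0.0823 in the selected nuclei, against 1.85 in MSNs, and Drd5 was listed at 0 in all 116. Oprm1, the mu opioid receptor gene, was at 0.0805 against 0.574 in Sst/Npy nuclei.

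Markers of other cell types were summed for each list and library. The sum of 15 MSN markers was 9.15 to 11.7 in wild-type and 6.93 to 12.9 in heterozygous libraries, against 46.2 in all other nuclei. That of 8 oligodendrocyte markers was 6.55 to 8.11 and 2.93 to 7.53, against 38.6, and that of 4 Sst or Npy markers 0.700 to 0.800 and 0.719 to 1.30, against 1.24. The rule itself limited genes of these 3 lists, so part of their low level was set by the selection. For 7 cholinergic markers the sum was 0.15 to 0.55 and 0 to 0.563, against 0.308, with Chat, the gene of acetylcholine synthesis, listed at 0 in every selected nucleus. The nuclei without Kit or Sox6 had a cholinergic sum of 1, of which Isl1 gave 0.694. For 8 glutamatergic markers, 1 of them limited by the rule, it was 0.95 to 1.35 and 0.933 to 1.53, against 3.13, with Neurod6 listed at 0. In the nuclei without Kit or Sox6, Slc17a6, a vesicular glutamate transporter gene, was at 0.361 and above 0 in 19.4% of nuclei, against a level of 0.15 in all other nuclei. For 10 markers of Vip-, Htr3a- or Th-type interneurons the sum was 1.75 to 4.11 and 2.10 to 3.75, against 4.98, with Vip and Htr3a listed at 0.

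Some sums reached or passed their level in all other nuclei. For 5 markers of oligodendrocyte precursors the sum was 0.45 to 2.21 in wild-type and 0 to 1.50 in heterozygous libraries, against 0.728 in all other nuclei, and it was 2.33 in the Sox6 subset. For 6 microglia markers it was 1 to 2.55 and 0.875 to 5.90, against 3.26, with the highest value in heterozygous replicate 2, and by subset it was 3.5 in the nuclei without Kit or Sox6, 1.7 in Kit nuclei and 0.778 in the Sox6 subset. Lower throughout were 7 astrocyte markers, at 4.68 to 10.7 and 5.19 to 6.90 against 15.9, and 7 vascular markers, at 0 to 0.316 and 0.133 to 0.281 against 1.34. For 9 pallidal markers the sum was 2.60 to 3.16 and 1.67 to 2.70, against 3.19, and for 5 markers of cortical chandelier cells, Pthlh among them, 0.80 to 1.7 and 1.09 to 1.33, against 1.01. The 22 markers of the striatal Pvalb or Pthlh type, which include genes of the rule, summed to 100.4 to 164.9 over libraries, against 18.2 in all other nuclei.

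The comparison of heterozygous with wild-type mice asks whether heterozygosity for Celsr3 goes with a change in these nuclei. Celsr3 (chr9:108826320-108852969, plus strand) had a level of 0.25, 0.15 and 0.158 in the wild-type libraries 1 to 3 and of 0.0667, 0.10 and 0.156 in their heterozygous counterparts. Averages per genotype were 0.186 ± 0.0556 and 0.108 ± 0.0453 (SD, n = 3 each), and the highest heterozygous library lay between the 2 lower wild-type ones. These levels rest on 5, 3 and 3 nuclei with Celsr3 above 0 in wild type and on 1, 1 and 5 in heterozygotes, so Celsr3 was below the limit set for testing across genes. Its difference was -0.77 on the log2(value + 0.01) scale, with an exact permutation p = 0.2 (two-sided), where 0.1 is the smallest p that 3 against 3 libraries allow. Among the 44 Kit nuclei alone, an alternative added after the data were seen, the levels were 0.6, 0.176 and 0 in wild type and 0.143, 0.5 and 0.25 in heterozygotes, with means of 0.259 and 0.298. Their log2 difference of +1.39 (exact permutation p = 0.7) rests on wild-type replicate 3, with 5 nuclei and Celsr3 at 0. MSNs, here the 14833 nuclei that also had Pvalb plus Pthlh of at most 1, gave 0.146 ± 0.0167 and 0.0894 ± 0.0134 (SD, n = 3 each). The genotypes did not overlap there, with an exact permutation p = 0.1, the smallest possible. Adjusted over all genes tested in MSNs, the limma adjusted p = 0.166. Sst/Npy nuclei gave 0.142 ± 0.0319 and 0.148 ± 0.0190 (SD, n = 3 each), with overlap (exact permutation p = 0.9).

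The share of these nuclei did not differ between genotypes beyond the spread between libraries. They made up 0.259%, 0.253% and 0.235% of all nuclei in wild-type libraries and 0.190%, 0.120% and 0.361% in heterozygous ones. The heterozygous libraries thus included the lowest and the highest share, and the means were 0.249% ± 0.0123 and 0.223% ± 0.124 (SD, n = 3 each), with a two-sided exact permutation p = 0.7. The difference of -0.0256 percentage points turned to 0.0263 without heterozygous replicate 2 and was -0.0942 without heterozygous replicate 3. Pvalb was at 2 or more in 75%, 35% and 68.4% of the selected nuclei in wild type and in 53.3%, 60% and 75% in heterozygotes, a difference of 3.30 points. Because the rule used Pvalb plus Pthlh, this share partly restates which of these genes brought a nucleus into the selection, and it is a description with no test. The difference was -8.93 points without wild-type replicate 2, the library of mostly Kit nuclei, and -2.81 without heterozygous replicate 3. Of the subsets, nuclei with Sox6 and Kit below 2 made up 25%, 10% and 31.6% of the selected nuclei in wild type and 53.3%, 40% and 34.4% in heterozygotes, means of 22.2% ± 11.1 and 42.6% ± 9.74 (SD, n = 3 each). These shares did not overlap, but were given no test because the subsets were defined after values were seen, and those of both other subsets overlapped. Detected genes per selected nucleus had medians of 3810.5, 3713.5 and 3715 in wild type, and of 3823, 3788 and 3830 in heterozygotes (exact permutation p = 0.2, two-sided).

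Across genes, none passed the test between genotypes. Of 3083 genes tested with limma, 0 had a Benjamini-Hochberg adjusted p under 0.05 (0.0%). At an unadjusted p under 0.05 stood 103 genes (3.34%), 48 higher (1.56%) and 55 lower (1.78%) in heterozygotes. The smallest adjusted p in limma was 0.998. With tied libraries counted as overlapping, the groups did not overlap for 254 genes (8.24%), 150 higher (4.87%) and 104 lower (3.37%). Size-factor scaling of the libraries gave no call either, but the higher genes were then 33.0% of those at this unadjusted level, against 46.6% before. Library means over 10 to 32 nuclei of mixed kinds limit this comparison.

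The genes with the smallest unadjusted p are given as values that did not pass. Gm42439, an antisense RNA (chr5:131954992-131965007, plus strand), was at 2.55, 2.90 and 2 in wild type and at 1.20, 0.800 and 0.844 in heterozygotes, a log2 difference of -1.39 (SE 0.28). All 3 heterozygous libraries were lower than all wild-type ones. The long noncoding RNA 8030451O07Rik was at 1.60, 2.35 and 1.47 in wild type and at 0.800, 0.700 and 0.750 in heterozygotes. Ctnna3, the gene of an alpha-catenin of cell junctions, was at 11.3, 9.25 and 15.2 in wild type and at 5.33, 8 and 3.41 in heterozygotes. Lower without overlap were also Gm12353, 5530401A14Rik, Apoe, Gm35188, P2ry14, 5330438D12Rik and 1700111E14Rik. Apoe, a lipid carrier made mainly by glia, was at 4.65, 3.15 and 3.68 in wild type and at 1.27, 2.10 and 2.34 in heterozygotes. Its log2 difference of -1.03 was -0.17 in nuclei with at least 3000 genes and -3.05 (SE 1.64) in Kit nuclei only. That of 8030451O07Rik, -1.23, was -0.34 in Kit nuclei only. Other genes moved less there: Gm42439 was at -1.20 (SE 0.38), Ctnna3 at -1.30 (SE 0.22) and Gm12353 at -1.19 (SE 0.31). Over all the selected nuclei these 3 were at -1.39, -1.15 and -1.06. No gene passed in Kit nuclei only, of which heterozygous replicate 2 held 2. The myelin gene Mobp was at 1.35, 1.25 and 1.47 in wild type and at 0.200, 0.30 and 1.25 in heterozygotes. All 4 oligodendrocyte markers tested and all 3 astrocyte markers tested had a lower mean log2 level in heterozygotes, against 45.6% of all genes tested. The astrocyte marker Slc1a3 differed by only -0.03, with plain means of 1.20 in wild type and 1.34 in heterozygotes. St18, counted as an oligodendrocyte marker, is also on the list of transcription factors and was highest in Kit nuclei, at 1.5. The part of glial RNA in these differences was not tested.

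On the other side, Parm1, which encodes a mucin-like membrane protein, was at 0.800, 0.900 and 0.842 in wild type and at 2.40, 1.50 and 1.69 in heterozygotes, a log2 difference of 1.10 (SE 0.27). Fgf13, an X-linked gene whose product binds sodium channels, was at 1.05, 2.50 and 3.05 in wild type and at 4.07, 6.10 and 4.38 in heterozygotes. Every heterozygous library was above every wild-type one for both genes. The log2 difference of Fgf13, 1.25, was 0.79 without wild-type replicate 1 and turned to -0.06 in Kit nuclei only. Senp7, Zfp804b, Nos1ap, Nap1l5, Tubb3, Cep170, Pde7a and Pacsin1 were the others with the smallest p in this direction. Zfp804b had the largest log2 difference of these, 2.28 (SE 0.69), with levels of 0.700, 0.350 and 3.79 in wild type and 4.20, 6.10 and 4.28 in heterozygotes. It was the only gene to pass in any fit of all the selected nuclei that was run, when wild-type replicate 3 was left out (limma adjusted p = 0.0449; its 14 alternatives gave adjusted values from 0.0449 up to 0.999). Its level came from few nuclei: 7 of the 116 had Zfp804b at 25 or more, 2 in wild-type replicate 3 and 1, 1 and 3 in the heterozygous libraries. In the 4 libraries that held them, these nuclei supplied 82.5% to 89.8% of the Zfp804b signal, and without them the library means were 0.350 to 0.700 in wild type and 0.483 to 1 in heterozygotes.

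**Figure D5:**
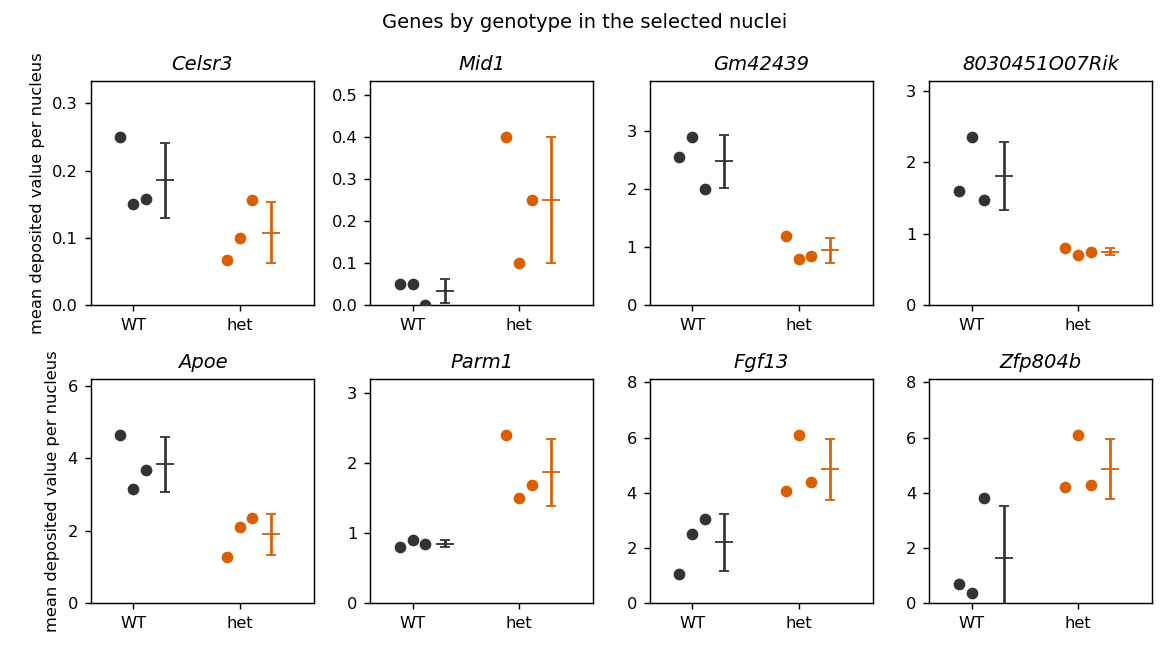
Mean deposited value per selected nucleus (vertical axes, each from 0) of 8 genes in the 3 wild-type (WT) and 3 heterozygous (het) libraries; points are libraries in replicate order, bars show the mean ± SD, and the lower end for Zfp804b in wild type falls below the axis. None passed the test across genes; Celsr3 overlaps between genotypes, and wild-type replicate 3 (3.79) lies far above the other wild-type libraries for Zfp804b.

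By function, the gene lists held 0 called genes each, beside a background of 0.0%. Of 18 fast-spiking genes 15 were tested, 9 with a higher and 6 with a lower level in heterozygotes, and their median log2 difference was 0.09, against 0.04 over all genes tested. Kcnh7, an ERG-type potassium channel gene with the smallest p among them, averaged 6.82 ± 1.36 in wild type and 9.45 ± 1.57 in heterozygotes (SD, n = 3 each). Of 6 tested genes for GABA synthesis and transport, 4 were higher and 2 lower, with a median of 0.07. Gad1 averaged 2.92 ± 0.524 and 2.90 ± 0.557 (SD, n = 3 each). Of 10 transcription factor genes, 4 were higher and 6 lower (median -0.01). The 5 perineuronal net genes tested had a median of -0.49, 1 higher and 4 lower. Bcan, the gene of the proteoglycan brevican, was at 1.05, 1.30 and 0.789 in wild type and at 0.467, 0.50 and 0.688 in heterozygotes, the only 1 of these 5 genes without overlap, beside 8.24% of all genes tested. Of 10 genes for calcium buffering and release, 8 were higher (median 0.23), with the vesicle protein gene Vamp2 at 0.390 ± 0.0365 and 0.640 ± 0.0686 (SD, n = 3 each). The share of all tested genes that were higher was 54.4%.

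Receptor, adhesion and guidance lists had median log2 differences near the 0.04 of all genes tested. The medians were 0.05 over 16 glutamate receptor genes, 0.08 over 10 GABA-A receptor genes and 0.13 over 6 neuromodulator receptor genes. For 18 synaptic adhesion genes the median was -0.05, with Adgrl2, a latrophilin gene, at 1.34 ± 0.430 in wild type and 0.717 ± 0.183 in heterozygotes (SD, n = 3 each). For 14 guidance genes it was 0.06 and for 9 growth factor receptor and ligand genes 0.11. Of the latter, 2 did not overlap between genotypes (Fgf13 and Nrg3), beside 8.24% of all genes tested. Of 17 genes of Celsr and planar cell polarity, which orient cells and growing axons, only Prickle1 and Prickle2 were high enough to test. Prickle1 averaged 1.63 ± 0.377 and 1.98 ± 0.153 and Prickle2 1.36 ± 0.137 and 1.49 ± 0.640 (SD, n = 3 each). Among 16 immediate early genes Homer1 alone was tested, at 0.567 ± 0.375 and 0.540 ± 0.184 (SD, n = 3 each).

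Genes that differed between genotypes in other cell classes of the same libraries were examined as a list, chosen with those results known. Of 11 genes, 4 reached the limit for testing, and all 4 had lower levels in heterozygotes, beside 45.6% of all genes tested. The list came from the same libraries, so this count is a description. Gm35188 was at 4.15, 8.40 and 4.21 in wild type and at 2.20, 3.10 and 2.16 in heterozygotes. It was highest in Kit nuclei, at 6.34 against 2.97 in the Sox6 subset and 2.17 in the nuclei without Kit or Sox6, and the share of Kit nuclei differed between libraries. Among Kit nuclei alone the genotypes overlapped, at 6.6, 9.29 and 5.2 in wild type and 3.43, 5.5 and 3.38 in heterozygotes, a log2 difference of -0.77 (exact permutation p = 0.2), against -1.10 over all the selected nuclei. They also overlapped in Sst/Npy nuclei (log2 difference 0.014, exact permutation p = 0.9) and in MSNs (-0.16, exact permutation p = 0.6). Mid1, a ubiquitin ligase gene (chrX:169685199-170005736, plus strand), was below the limit, with 1, 1 and 0 nuclei above 0 in wild type and 6, 1 and 8 in heterozygotes. Its level was 0.0333 ± 0.0289 and 0.25 ± 0.15 (SD, n = 3 each) without overlap, with an exact permutation p = 0.1, the smallest possible. In MSNs, Mid1 was at 0.0324 ± 0.00652 and 0.223 ± 0.0236 (SD, n = 3 each; limma adjusted p = 0.00124). The ribosomal protein gene Rpl29 was at 0.550, 0.10 and 0.474 in wild type and at 0.0667, 0.10 and 0.156 in heterozygotes, with wild-type replicate 2 as low as the heterozygous libraries.

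Whether the genotype difference in these nuclei departed from that in other neurons was tested directly. Against Sst/Npy nuclei, 0 of 3070 genes passed in limma (0.0%), and 102 had an unadjusted p under 0.05 (3.32%). Against MSNs, 0 of 2946 genes passed (0.0%), and 87 had an unadjusted p under 0.05 (2.95%). Among the latter, Zfp804b had the smallest p of genes whose change in heterozygotes was more positive in the selected nuclei than in MSNs. The changes differed by 1.98 (SE 0.54, limma adjusted p = 0.996), and its level came from few nuclei, as given above. In the other direction, Bptf (-1.02) and Rbm4b (-1.06) had a smaller p and did not pass either.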

How the data were processed

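Nuclei of frozen striatum were profiled with 10x Genomics 3′ v3.1 chemistry, per the labels' protocols. The submitters' processing notes name Cell Ranger, Seurat 4.1 and the builds mm10 and GRCm38. The deposited table of 24841 genes by 48834 nuclei was treated as a score: from the values, the authors' UMI counts appear to have been depth-corrected and rounded, which can turn a lone UMI into 2 or more in shallow nuclei. Whether counting used strand is not given in the sources used here, and the overlap of antisense RNAs such as Gm42439 with their partners was not examined. Gene positions are from GENCODE M21 of GRCm38, which held 97.7% of the symbols.

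Each gene's mean value per selected nucleus was taken per library, put on a log2 scale after adding 0.01, and compared between heterozygotes and wild type, without covariates, in limma 3.58.1 under R 4.3.3. The variance prior followed the mean level, and Benjamini-Hochberg adjustment ran over all genes tested. The added 0.01 understates changes of low genes, but where a library stands at or near 0 the log2 difference can exceed that of the means. Tested genes had a mean of at least 0.1 and a summed value averaging at least 10 per library. The tests were planned for depth-corrected values, with a count model to replace them had the values been raw counts. For differences from other classes, the log2 mean of the other class was subtracted from that of the selected nuclei within each library. These within-library differences were compared between genotypes in limma. The share of nuclei and the median of genes were compared with exact permutation tests over libraries. One planned for the share with Pvalb at 2 or more is not given, as the rule used Pvalb. Replicates measure the spread between these libraries, whose number limits precision. Scrublet (scanpy 1.11.5, expected rate 0.06) called 0.317% to 0.824% of nuclei as doublets, under 0.5% in 2 libraries, so its automatic calls were not used. Nuclei were kept, and a score above 0.25 was used as an alternative.

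The members, gene lists and tests were chosen with earlier results of these data known. Named genes were Celsr3, the genes of the rule and label, up to 10 per direction by smallest p where none passed, up to 4 per list, the genes of earlier results, and the largest ratios against all other nuclei (20), Sst/Npy nuclei and nuclei without Pvalb (10 per direction each), at a mean of at least 0.3 and with the same sign in 6 libraries. Genes named for the subsets, and other genes given as levels, were chosen after their values were seen. Some genes are not reported here.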

Additional observations from a re-analysis of the deposited data

How the results depend on the processing

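The genotype comparison kept 0 called genes under 14 of 15 alternatives: another pseudocount (0.1), no filter (13749 genes tested), a stricter filter, size-factor scaling, array weights, the doublet limit, 5 of 6 fits without a library, only nuclei with Kit at 2 or more, only nuclei with at least 3000 genes, and the replicate block. The Kit and 3000-gene selections were chosen after seeing the data. Leaving out each library gave 0 to 1 called genes, the 1 being Zfp804b without wild-type replicate 3. With the replicate number as a block, 0 genes were called and 100 had an unadjusted p under 0.05. The deviations of same-numbered libraries correlated at -0.0856, -0.168 and 0.184, so the numbers were not taken to pair the samples. Of the single values the block was run for Celsr3 alone, where the exact paired p was 0.25. That is the smallest p that 3 pairs allow, so this test could not pass. Both tests of a difference between classes gave 0 under every alternative run, including the block and 0 to 0 without each library. The Celsr3 difference stayed negative except with Kit nuclei only (1.39). It was -1.06 to -0.50 without each library and -0.47 with the pseudocount of 0.1. The difference in the share of nuclei was -0.0942 to 0.0263 percentage points without each library, 0.0109 with stricter limits, which left 9 nuclei, -0.0464 for Kit nuclei only and -0.0025 for nuclei with at least 3000 genes. Without each library, that of the Pvalb share was -8.93 to 11.1 points and that of median genes 50.9 to 99.4. Kit nuclei only gave 12.8 points and 106.3 genes. The causes were not tested. Stricter limits left libraries without nuclei, so the other results were not run with them, and array weights were not run for Celsr3. The unknown depth, and 10 to 32 nuclei per library, limit what could be detected.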
